A study of Homo sapiens with 4 samples.

Results

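The genes described here are 10 mRNAs of the NF-kB response: the secreted cytokines and chemokines CXCL8, CXCL1, CXCL2, CXCL3, IL6, LIF, IL1A and IL1B, and the feedback inhibitors NFKBIA and TNFAIP3. They were chosen by symbol, as a named set fixed with earlier results of these data known, out of 23585 genes in the tables. Values were listed in every library for 8 of the 10, and these 8 were among the 14942 genes tested. The cells were DU145, a human prostate cancer cell line, in 4 RNA-seq libraries that asked what lowering the splicing factor PTBP1, or the DNMT3B form called DNMT3B-L, does to the transcriptome. Of these, 2 libraries came from cells given PTBP1 siRNA, each with a different siRNA (siPTBP1 replicate 1 and replicate 2), 1 from cells given DNMT3B-L siRNA (siDNMT3B-L) and 1 from cells given negative control siRNA (control). All siRNAs were used at 75 nM with a lipid reagent for 48 h, in cells of unmodified genotype. No inflammatory stimulus and no untransfected library is named in the labels, so the values are those of transfected cells. Nothing in the labels says that the libraries came from separate cultures, and siDNMT3B-L and control had 1 library each.

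NF-kB is a family of dimeric transcription factors held in the cytoplasm by inhibitor proteins. Cytokines and microbial products activate the IkB kinase, the inhibitor is degraded, and the dimers enter the nucleus and bind kB sites at target promoters. Among the targets are neutrophil-attracting chemokines, cytokines of the IL6 family, and the genes of the inhibitors themselves. NFKBIA encodes IkBα, which returns the dimers to the cytoplasm, and TNFAIP3 encodes A20, a ubiquitin-editing enzyme that turns off the signal upstream of the kinase. DU145 is a line known for constitutive NF-kB activity and for secretion of inflammatory cytokines.

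The promoters of the members hold kB words, and 7 stretches are printed here because each holds the kB match nearest to the transcription start. RefSeq promoters on GRCh38.p14, which run from 250 bases before to 50 bases after the start, were found for 9 of the 10 genes. Each stretch is 60 bases long and is written in the direction of transcription, with matches to the kB consensus of 10 letters in capitals, on either strand. For CXCL8, which had no match to that consensus, the capitals mark GGAATTTCC, the shorter form of 9 letters. The stretches lie at chr4:73869290-73869349 for CXCL1, chr4:74099238-74099297 (minus strand) for CXCL2, chr4:74038733-74038792 (minus strand) for CXCL3, chr4:73740452-73740511 for CXCL8, chr7:22727102-22727161 for IL6, chr14:35404796-35404855 (minus strand) for NFKBIA and chr6:137867179-137867238 for TNFAIP3.
CXCL1: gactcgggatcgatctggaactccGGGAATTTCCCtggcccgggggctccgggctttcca
CXCL2: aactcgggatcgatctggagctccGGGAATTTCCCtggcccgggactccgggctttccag
CXCL3: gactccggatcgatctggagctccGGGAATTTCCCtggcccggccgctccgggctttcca
CXCL8: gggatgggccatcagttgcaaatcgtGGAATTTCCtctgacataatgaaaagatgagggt
IL6: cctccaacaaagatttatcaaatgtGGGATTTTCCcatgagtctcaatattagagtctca
NFKBIA: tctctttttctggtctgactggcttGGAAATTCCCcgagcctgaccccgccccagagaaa
TNFAIP3: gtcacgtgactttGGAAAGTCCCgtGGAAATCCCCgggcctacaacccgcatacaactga

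The consensus was matched in the promoters of 6 members (CXCL1, CXCL2, CXCL3, IL6, NFKBIA and TNFAIP3) and in 5.91% of all 35116 promoters of the same length. The matches of these 6 began between 81 and 55 bases before the RefSeq start. In CXCL1, CXCL2 and CXCL3 the capitals are the same 11 letters, which match on both strands in overlapping windows. TNFAIP3 had 2 separate matches, whose first bases lie 12 bases apart. The shorter word GGAATTTCC occurred in CXCL1, CXCL2, CXCL3, CXCL8 and NFKBIA and in 0.461% of all promoters. The AP-1 word TGANTCA, the binding word of Fos and Jun dimers, was found in CXCL8, 137 bases before the start, at 2 places in IL1A, and in 7.71% of all promoters. IL1B had no match to any of the 3 words in this window. A match is a description of the letters only.

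**Figure D1:**
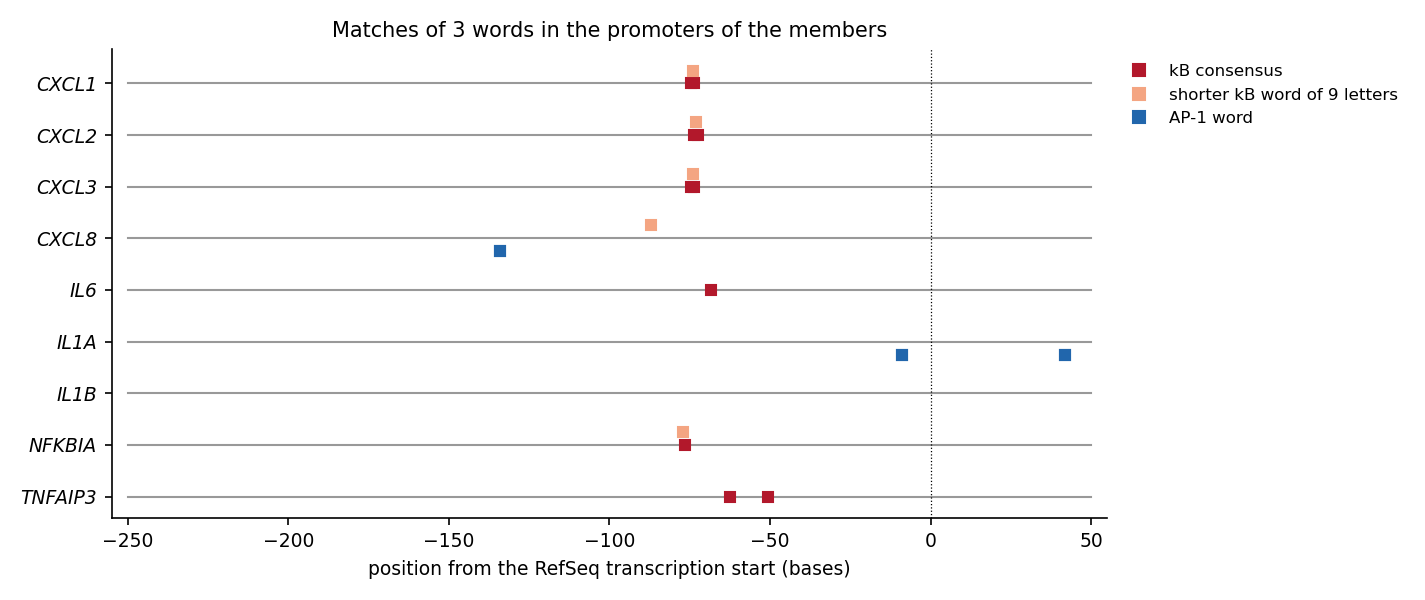
Matches of the kB consensus (dark red), the shorter kB word (light red) and the AP-1 word (blue) on either strand, by position in bases from the RefSeq transcription start, in the promoters of 9 members (for IL1A, the first of 2 promoter entries). The kB matches of 7 genes lie between 91 and 46 bases before the start.

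CXCL1, CXCL2 and CXCL3 are close paralogues, and CXCL8 is a more distant relative in the same cluster on chromosome 4. In GENCODE v29 (GRCh38) CXCL8 lies at chr4:73740506-73743716 and CXCL1 at chr4:73869393-73871242 on the plus strand, and CXCL3 at chr4:74036589-74038807 and CXCL2 at chr4:74097035-74099293 on the minus strand. The printed stretches of CXCL1 and CXCL3 were 93.3% identical when aligned, those of CXCL1 and CXCL2 91.8%, and those of CXCL2 and CXCL3 90.2%, against 46.0% for CXCL1 and CXCL8. The mRNAs themselves are less alike. Of the 100-base words in annotated transcripts, the length of 1 read, 5.00% of those of CXCL2 and 3.27% of those of CXCL3 were shared between these 2 genes, and CXCL1 and CXCL8 shared none with another gene. A single read that lies wholly in the shared stretch of CXCL2 and CXCL3 cannot be assigned to either gene. Whether its mate would place the pair was not tested.

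The other members lie apart from this cluster: IL6 at chr7:22725884-22732002, LIF at chr22:30240447-30246851 (minus strand), IL1A at chr2:112773915-112784590 and IL1B at chr2:112829751-112836903 (both minus strand), NFKBIA at chr14:35401511-35404749 (minus strand) and TNFAIP3 at chr6:137867188-137883312. By these GENCODE coordinates, CXCL2, CXCL3, IL6 and TNFAIP3 start upstream of their kB matches, which lie before the start only in RefSeq. IL6 and LIF are each overlapped by an antisense gene, with 12.6% and 1.96% of their 100-base words shared. Use of strand in the authors' counting was not given in the sources used here, so a single read within those stretches cannot be assigned. Placement by its mate was not tested here either. The antisense gene at IL6 was listed at 0.0415 and 0.0432 CPM (read pairs of a gene scaled to a common library total) in siPTBP1 replicates 1 and 2 and 0.178 CPM in control, and not in siDNMT3B-L. The one at LIF was listed at 1.29 and 1.42 CPM in siPTBP1, 1.03 CPM in siDNMT3B-L and 0.533 CPM in control, which is small beside LIF itself.

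Cytokine mRNAs are commonly short-lived because their 3′ UTRs carry AU-rich elements, built from the word ATTTA, which recruit decay factors. The longest annotated 3′ UTR held a median of 7.14 such words per kb in the 10 members, against 1.62 per kb in 12556 tested genes with a 3′ UTR. IL6 (14.0 per kb), CXCL2 (13.9), CXCL3 (10.4) and IL1B (9.84) had the densest UTRs, and fewer than 1% of the tested genes reached the density of any of them. Their UTRs are short, at 429, 721, 673 and 610 bases against a median of 1393, and by number of words, 6, 10, 7 and 6, they were reached by 27.9%, 14.6%, 23.6% and 27.9% of the tested genes. NFKBIA had 5.98 per kb. LIF (2.18) and TNFAIP3 (1.27) stood near the middle of the tested genes, with 39.5% and 57.2% of genes at their density or above. The members were thus mixed in this feature, and the high ranks hold per kb and not by number of words.

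Depth was alike in the 4 libraries, at 22332245 to 24088975 read pairs, so 1 CPM stands for 22 to 24 read pairs. The targeted genes were checked first. PTBP1 was at 268 and 135 CPM in siPTBP1 replicates 1 and 2, 982 CPM in siDNMT3B-L and 928 CPM in control. DNMT3B, all transcripts together, was at 8.43 and 13.1 CPM in siPTBP1, 5.46 CPM in siDNMT3B-L and 9.77 CPM in control. The tables hold 1 value per gene and do not separate DNMT3B-L from other forms. The prostate epithelial keratins KRT8, KRT18 and KRT19 were listed in every library, while KLK3, KLK2 and TMPRSS2 were in none. The 5 epithelial markers summed to 1713 and 942 CPM in siPTBP1, 1734 CPM in siDNMT3B-L and 2007 CPM in control, so siPTBP1 replicate 2 stood lowest. Of 5 leukocyte markers, PTPRC, CD68, CD3E and MS4A1 were not listed and CD14 was at 0.777 to 0.996 CPM. Endothelial markers summed to 0.246 to 1.20 CPM, and of 4 fibroblast markers DCN and LUM were not listed, while COL1A1 was at 26.98 and 18.9 CPM in siPTBP1, 18.4 CPM in siDNMT3B-L and 16.1 CPM in control.

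Between genes, levels are comparable only per length of exon. In CPM per kb of exon, NFKBIA was the highest member in every library (97.5 and 75.6 in siPTBP1, 53.9 in siDNMT3B-L, 79.9 in control) and LIF was next (21.0 and 16.3, 15.7, 12.5). All the other members stayed below 6 CPM per kb. In control the order went on with CXCL8 (3.30), CXCL2 (3.11), CXCL1 (2.23), TNFAIP3 (1.83), IL6 (0.966) and CXCL3 (0.400). By counting error, CXCL8 and CXCL2, CXCL2 and CXCL1, and CXCL1 and TNFAIP3 were neighbours with overlapping intervals. In siDNMT3B-L CXCL2 (4.45), CXCL8 (4.33), CXCL1 (3.80) and TNFAIP3 (3.68) lay close together, and CXCL3 (1.27) stood above IL6 (0.563). In siPTBP1 replicates 1 and 2, CXCL8 led this group with 5.68 and 4.97 CPM per kb, and CXCL1 was lower than TNFAIP3, at 1.28 and 1.60 against 2.52 and 2.72. NFKBIA and LIF mRNA were thus far more abundant than chemokine, IL6 and TNFAIP3 mRNA in these cells.

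**Figure D2:**
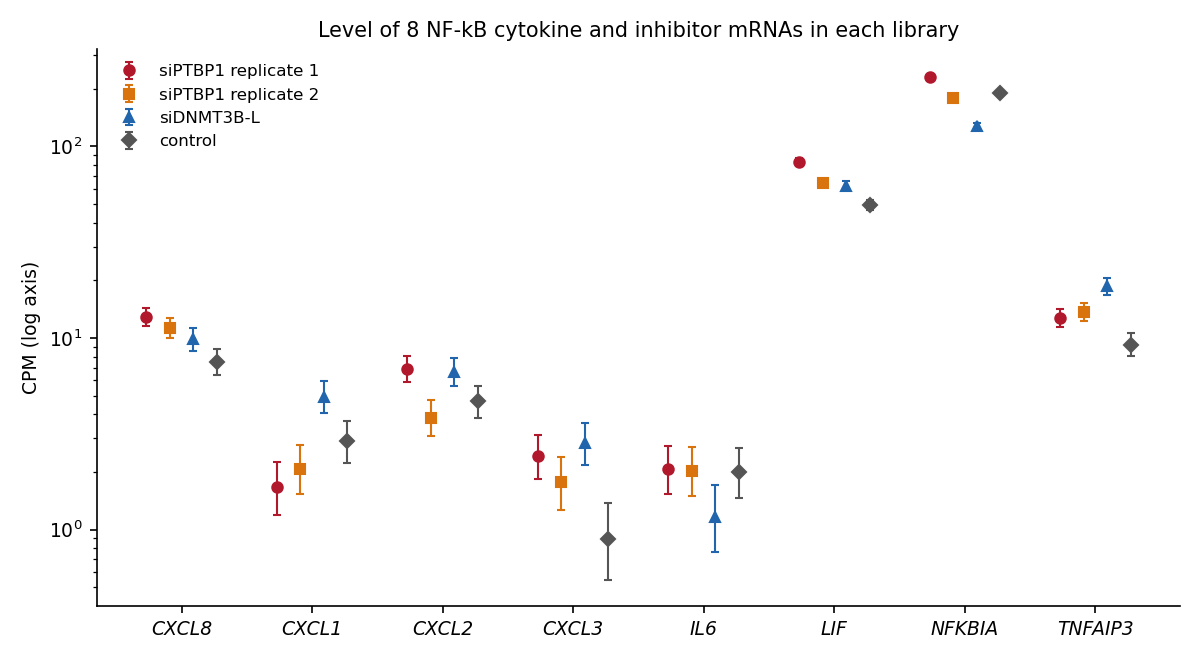
Level in CPM (log axis) of the 8 members listed in all tables, in siPTBP1 replicates 1 and 2, siDNMT3B-L and control. Points are single libraries and bars are exact 95% Poisson intervals, which cover counting error only. CPM is not divided by exon length here. NFKBIA (128 to 231 CPM) and LIF (49.7 to 83.4 CPM) are the highest. The lowest points are CXCL1 in siPTBP1 replicate 1 (1.66 CPM), CXCL3 in siPTBP1 replicate 2 and control (1.77 and 0.888 CPM) and IL6 in siDNMT3B-L (1.16 CPM). Per kb of exon, IL6 (1.00) and CXCL3 (1.09) lie below CXCL1 (1.28) in siPTBP1 replicate 1.

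CXCL8 (interleukin 8) attracts neutrophils through CXCR1 and CXCR2. It was at 12.9 and 11.3 CPM in siPTBP1 replicates 1 and 2, 9.85 CPM in siDNMT3B-L and 7.51 CPM in control. All 3 siRNA libraries lay above the control library, with the siPTBP1 libraries highest. The ratio of read pairs to control was 1.72 (95% counting interval 1.42 to 2.09) and 1.51 (1.24 to 1.84) for siPTBP1, and 1.31 (1.07 to 1.61) for siDNMT3B-L. All 3 ratios share the control library and its chance error. On the log2(CPM + 1) scale the difference of siPTBP1 from control was 0.62 ± 0.34 (SE, 2 libraries against 1), with a 95% interval of -0.12 to 1.36. It did not pass the test across all genes (limma, adjusted p = 1.00). Each SE in this text is moderated by limma, which pools the spread over all genes. In bulk RNA, fewer cells making a transcript and less of it per cell cannot be told apart, here and below.

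CXCL1 attracts neutrophils through CXCR2. It was at 1.66 and 2.07 CPM in siPTBP1 replicates 1 and 2, 4.93 CPM in siDNMT3B-L and 2.89 CPM in control. The control library lay between the siPTBP1 libraries, below it, and siDNMT3B-L, above it. These levels rest on 40 and 48 read pairs in siPTBP1, 110 in siDNMT3B-L and 65 in control. The read ratio to control was 0.575 (0.378 to 0.866) and 0.718 (0.484 to 1.06) in siPTBP1 and 1.71 (1.24 to 2.36) in siDNMT3B-L. Against siDNMT3B-L directly, with no use of the control library, the siPTBP1 libraries were at ratios of 0.337 (0.229 to 0.488) and 0.421 (0.293 to 0.596). That difference, -1.05 ± 0.35 on the log2(CPM + 1) scale (SE, 2 libraries against 1), had the smallest adjusted p of any member in the 3 limma comparisons, and it did not pass (adjusted p = 0.781).

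CXCL2 and CXCL3 act on the same receptor as CXCL1. CXCL2 was at 6.89 and 3.84 CPM in siPTBP1 replicates 1 and 2, 6.67 CPM in siDNMT3B-L and 4.66 CPM in control. The 2 siPTBP1 libraries lay on opposite sides of the control library, and replicate 1 was close to siDNMT3B-L. Between the 2 PTBP1 siRNAs the read ratio was 1.79 (1.38 to 2.35), the only member at 1.5-fold or more between them on the log2(CPM + 1) scale. Between these libraries 9.18% of the 14942 genes were at least 1.5-fold higher in replicate 1, 7.92% at least 1.5-fold lower, and 3.67% differed by 2-fold or more. The fit gave 0.13 ± 0.38 for siPTBP1 against control and 0.44 ± 0.45 for siDNMT3B-L against control, with intervals that include 0 (-0.71 to 0.96 and -0.53 to 1.40).

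CXCL3 was at 2.41 and 1.77 CPM in siPTBP1 replicates 1 and 2, 2.82 CPM in siDNMT3B-L and 0.888 CPM in control. It was the member with the largest ratio to control in each siRNA library, and the control library, with 20 read pairs, stood below all 3. The read ratios were 2.71 (1.61 to 4.76) and 1.99 (1.14 to 3.59) in siPTBP1 and 3.18 (1.89 to 5.55) in siDNMT3B-L. The wide intervals follow from the low count in the control library. On the log2(CPM + 1) scale, which understates the change of low genes, siDNMT3B-L was 1.02 ± 0.41 above control, with an interval of 0.13 to 1.91 (limma, adjusted p = 0.998). CXCL3 was below 1 CPM in control and passed the filter of 1 CPM only through the siRNA libraries, so its interval and its place among tested genes are tied to its higher values there. The same difference for siPTBP1 was 0.70 ± 0.36 (adjusted p = 1.00).

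IL6 and LIF belong to the cytokine family that signals through the shared receptor chain gp130. IL6 was at 2.08 and 2.03 CPM in siPTBP1 replicates 1 and 2, 1.16 CPM in siDNMT3B-L and 2.00 CPM in control. The siPTBP1 libraries and the control library were within counting error of each other, on 50, 47 and 45 read pairs, and siDNMT3B-L, on 26, was lowest. The ratio to control was 1.04 (0.680 to 1.59) and 1.02 (0.660 to 1.56) in siPTBP1 and 0.582 (0.345 to 0.965) in siDNMT3B-L. In the fit the siPTBP1 difference was 0.03 ± 0.35, with an interval of -0.73 to 0.78, and that of siDNMT3B-L was -0.47 ± 0.40 (-1.34 to 0.40). At this depth a change of IL6 within the 2 siPTBP1 intervals was not detectable.

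LIF, leukemia inhibitory factor, acts through LIFR and gp130 and was the most abundant cytokine mRNA of the set. It was at 83.4 and 64.5 CPM in siPTBP1 replicates 1 and 2, 62.4 CPM in siDNMT3B-L and 49.7 CPM in control. The control library was the lowest, siPTBP1 replicate 1 the highest, and siPTBP1 replicate 2 and siDNMT3B-L lay within counting error of each other (read ratio 1.03, 0.961 to 1.11). With 1119 to 2008 read pairs per library the ratios to control are tightly counted, at 1.68 (1.56 to 1.81) and 1.30 (1.20 to 1.40) in siPTBP1 and 1.25 (1.16 to 1.36) in siDNMT3B-L. The 2 PTBP1 siRNAs differed from each other by a ratio of 1.29 (1.21 to 1.38), which is about the size of the smaller of their ratios to control. The fit gave 0.55 ± 0.32 for siPTBP1 (-0.15 to 1.25, adjusted p = 1.00) and 0.32 ± 0.37 for siDNMT3B-L (adjusted p = 0.998).

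IL1A and IL1B encode the interleukin 1 cytokines, which activate NF-kB through IL1R1 and IL1RAP. IL1A was listed at 0.216 CPM (5 read pairs) in siPTBP1 replicate 2 and 0.134 CPM (3 read pairs) in siDNMT3B-L, and was not listed for siPTBP1 replicate 1 or control. IL1B was listed only in siDNMT3B-L, at 0.0896 CPM (2 read pairs). Both were at the limit of detection at this depth. The criterion for listing a gene was not given in the sources used here, so an unlisted gene was not taken as 0, and neither gene was tested or given a ratio.

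NFKBIA, the IkBα gene, was at 231 and 179 CPM in siPTBP1 replicates 1 and 2, 128 CPM in siDNMT3B-L and 190 CPM in control. The siPTBP1 libraries stood on both sides of the control library, and siDNMT3B-L was the lowest. The ratio to control was 1.22 (1.17 to 1.27) and 0.946 (0.906 to 0.987) in siPTBP1 and 0.674 (0.643 to 0.707) in siDNMT3B-L. At 2855 to 5572 read pairs per library all 3 intervals excluded 1, but the 2 PTBP1 siRNAs differed by a ratio of 1.29 (1.24 to 1.34), more than either differed from control. The fit gave 0.10 ± 0.31 for siPTBP1 and -0.56 ± 0.36 for siDNMT3B-L (-1.34 to 0.21, adjusted p = 0.998). Between siPTBP1 and siDNMT3B-L it gave 0.67 ± 0.31, with an interval of -0.005 to 1.34 (limma, adjusted p = 0.933).

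TNFAIP3, the A20 gene, was at 12.7 and 13.7 CPM in siPTBP1 replicates 1 and 2, 18.6 CPM in siDNMT3B-L and 9.24 CPM in control. All 3 siRNA libraries lay above control and siDNMT3B-L was the highest. The ratio to control was 1.38 (1.15 to 1.65) and 1.49 (1.24 to 1.78) in siPTBP1, which did not differ from each other beyond counting error (0.928, 0.791 to 1.09), and 2.01 (1.70 to 2.39) in siDNMT3B-L. On the log2(CPM + 1) scale siDNMT3B-L was 0.94 ± 0.39 above control (0.09 to 1.78), which did not pass the test across all genes. A difference at least this high was found in 0.522% of the tested genes, and one as large in either direction in 2.43%. For siPTBP1 the difference from control was 0.47 ± 0.34, which did not pass either. In siDNMT3B-L the 2 inhibitor genes thus lay on opposite sides of control, NFKBIA below and TNFAIP3 above.

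**Figure D3:**
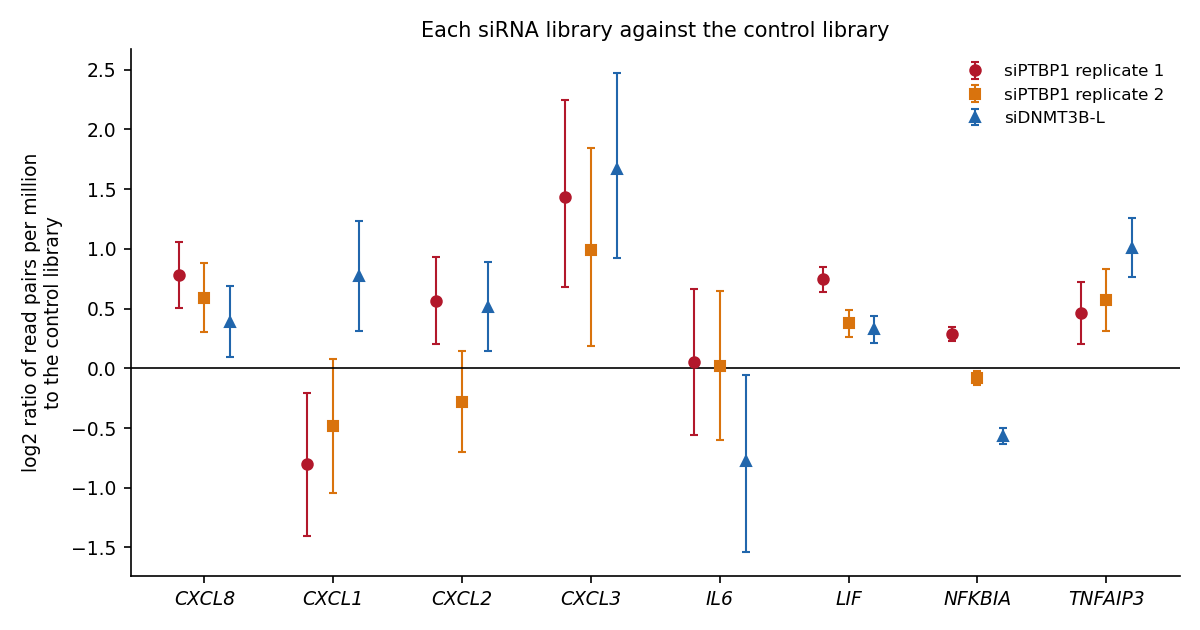
Log2 ratio of CPM to the control library for the 8 members, in siPTBP1 replicates 1 and 2 and siDNMT3B-L, with 95% exact conditional intervals that cover counting error only. The line at 0 is the control library. CXCL8, CXCL3, LIF and TNFAIP3 are above it in all 3 libraries, and CXCL1 is below it in siPTBP1 and above it in siDNMT3B-L.

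No member passed the test in any comparison. The same test did not call PTBP1 itself, at ratios to control of 0.289 and 0.145 in the siPTBP1 libraries (limma, adjusted p = 0.352 against control and 0.168 against siDNMT3B-L), so a gene that it did not call may still differ. In limma, with Benjamini-Hochberg adjustment over 14942 genes, 0 of the 8 members were called in siPTBP1 against control, where 0.00669% of all genes were called (1 gene, PTBP2, a paralogue whose mRNA PTBP1 is known to repress). The count was 0 of 8 in siDNMT3B-L against control, where 0% of genes were called, and 0 of 8 in siPTBP1 against siDNMT3B-L, where 0.00669% were called, again PTBP2. Unadjusted p-values were not used for calls in these comparisons, where siDNMT3B-L and control had 1 library each. The spread in this fit rests on 1 residual degree of freedom, from the 2 siPTBP1 libraries, which also differ in their siRNA.

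The members were also counted by size in single libraries, on the log2(CPM + 1) scale and with no test. At least 1.5-fold above control were 3 members in siPTBP1 replicate 1 (CXCL3, LIF and CXCL8), against 4.52% of all genes, 0 in replicate 2, against 4.08%, and 3 in siDNMT3B-L (CXCL3, TNFAIP3 and CXCL1), against 4.6%. CXCL3 is in these counts through the filter, as given above. At least 1.5-fold below control were 0 members in each library, against 7.36%, 8.19% and 7.3% of all genes. A 2-fold difference in either direction was reached by 0 members in siPTBP1 replicates 1 and 2 and by 1 member, CXCL3, in siDNMT3B-L, against 2.14%, 2.15% and 1.78% of genes. The pseudocount of 1 shrinks the differences of members at 1 to 5 CPM, and plain CPM ratios, added after seeing the data, gave other counts. On that scale 3 members (CXCL3, LIF and CXCL8), 2 (CXCL3 and CXCL8) and 3 (CXCL3, TNFAIP3 and CXCL1) were at least 1.5-fold above control in siPTBP1 replicates 1 and 2 and siDNMT3B-L, against 7.29%, 7.13% and 7.49% of genes. CXCL1 in siPTBP1 replicate 1 and IL6 in siDNMT3B-L were at least 1.5-fold below, and no member was in replicate 2, against 11.1%, 11.5% and 12.3% of genes in these libraries. CXCL3 in siPTBP1 replicate 1, and CXCL3 and TNFAIP3 in siDNMT3B-L, passed 2-fold, and no member did in replicate 2, against 5.86%, 5.81% and 6.23% of genes. The counting interval excluded a ratio of 1 for 7, 5 and 8 of the 8 members in these libraries, against 57.2%, 57.8% and 58.7% of all genes, and for 3 of 8 between the 2 siPTBP1 libraries, against 61.6%. Intervals of this kind thus excluded 1 for most tested genes, between the 2 siPTBP1 libraries as well.

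The median difference of the 8 members from control was 0.45 in siPTBP1 replicate 1, 0.19 in replicate 2 and 0.39 in siDNMT3B-L, beside medians of 0.00, 0.00 and 0.03 over all tested genes. Without CXCL3 the medians of the other 7 were 0.42, 0.014 and 0.35. The members themselves were not uniform. They ranged from -0.55 (CXCL1) to 0.85 (CXCL3) in siPTBP1 replicate 1, from -0.34 (CXCL1) to 0.55 (CXCL3) in replicate 2, and from -0.56 (NFKBIA) to 1.02 (CXCL3) in siDNMT3B-L. The 3 comparisons share the control library, so a low value of CXCL3 there enters all of them.

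**Figure D4:**
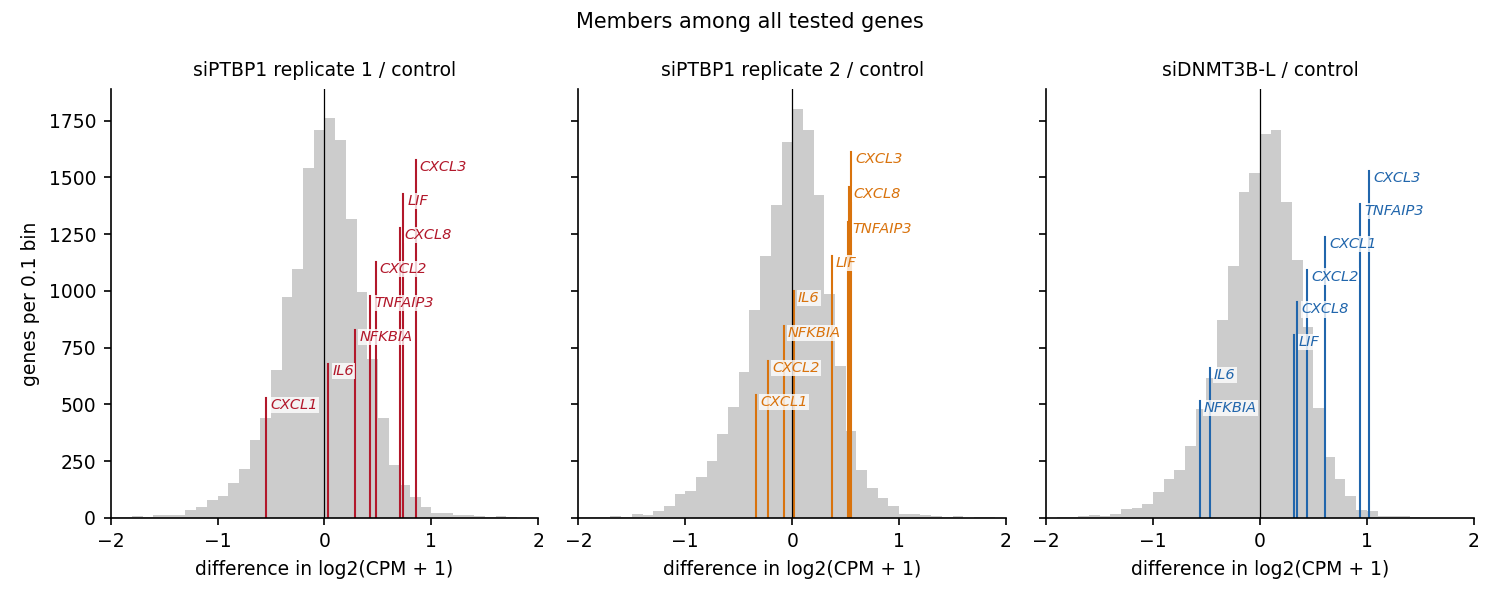
Histograms of the difference in log2(CPM + 1) from the control library over 14942 genes, in bins of 0.1, for siPTBP1 replicate 1, siPTBP1 replicate 2 and siDNMT3B-L, with the 8 members marked by lines whose heights carry no value. CXCL3 lies farthest right in each panel, and CXCL1, CXCL2, IL6 and NFKBIA change sides between panels.

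The receptors of these ligands were listed only in part. Of 12 genes in a list of receptors, their immediate signal transducers and the interleukin 1 antagonist gene IL1RN, 7 were tested. CXCR1, CXCR2 and ACKR1, the receptors that bind the chemokines, were not listed in any library. IL6ST (gp130), LIFR, IL6R, IL1R1 and IL1RAP were all present at more than 15 CPM. None of the 7 was called. The median difference from control was 0.24 and -0.68 in siPTBP1 replicates 1 and 2 and -0.13 in siDNMT3B-L. At 1.5-fold, 2 were higher and 1 lower in siPTBP1 replicate 1 (4.52% and 7.36% of all genes). The counts were 1 higher and 4 lower in replicate 2 (4.08% and 8.19%), and 2 higher and 0 lower in siDNMT3B-L (4.6% and 7.3%). IL1RAP, the accessory chain of the interleukin 1 receptor, was at 79.9 and 55.9 CPM in siPTBP1, 59.2 CPM in siDNMT3B-L and 32.3 CPM in control. IL1R1, the ligand-binding chain, was at 18.8 and 19.2 CPM in siPTBP1, 30.1 CPM in siDNMT3B-L and 34.3 CPM in control. IL6R was at 39.5 and 22.7 CPM in siPTBP1, 65.6 CPM in siDNMT3B-L and 36.9 CPM in control. JAK1, a kinase bound to gp130, stayed between 171 and 210 CPM. The epithelial marker sum was also lowest in siPTBP1 replicate 2, and its part in these values was not tested.

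None of the genes upstream of the members passed the test. Of 29 genes for NF-kB subunits, IkB kinases and the signalling proteins upstream of them, all were tested and none was called. Their median difference from control was -0.09 and 0.09 in siPTBP1 replicates 1 and 2 and -0.06 in siDNMT3B-L. At 1.5-fold, 0, 0 and 1 were higher in these libraries, against 4.52%, 4.08% and 4.6% of all genes. Lower by 1.5-fold were 2, 0 and 0, against 7.36%, 8.19% and 7.3%. NFKB2, the precursor of p52 and itself an NF-kB target, was at 139.6 and 146 CPM in siPTBP1, 174.5 CPM in siDNMT3B-L and 109 CPM in control. NFKB1, the precursor of p50, was at 63.5 and 53.5 CPM in siPTBP1, 87.0 CPM in siDNMT3B-L and 63.2 CPM in control. RIPK1, a kinase below the TNF receptor, was at 34.7 and 40.1 CPM in siPTBP1, 45.9 CPM in siDNMT3B-L and 48.8 CPM in control, and TBK1 was at 29.8 and 32.1 CPM in siPTBP1, 33.8 CPM in siDNMT3B-L and 24.7 CPM in control.

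Other regulators of NF-kB and of cytokine mRNA, a list of 27 genes with 26 tested, also gave 0 calls. Their medians were 0.06 and 0.05 in siPTBP1 replicates 1 and 2 and 0.10 in siDNMT3B-L. At 1.5-fold, 1 was higher in each of the 3 libraries, against 4.52%, 4.08% and 4.6% of all genes. Lower by 1.5-fold were 1, 2 and 1, against 7.36%, 8.19% and 7.3%. BCL3, a nuclear IkB protein that binds p50 and p52, was at 120 and 117.5 CPM in siPTBP1, 75.2 CPM in siDNMT3B-L and 149 CPM in control. DUSP1, a phosphatase that ends p38 signalling, was at 127 and 208 CPM in siPTBP1, 183.5 CPM in siDNMT3B-L and 106 CPM in control. NFKBIB, which encodes IkBβ, was at 55.8 and 59.2 CPM in siPTBP1, 63.9 CPM in siDNMT3B-L and 44.5 CPM in control. PDLIM2, which promotes degradation of nuclear RELA, was at 38.4 and 36.9 CPM in siPTBP1, 30.1 CPM in siDNMT3B-L and 25.9 CPM in control.

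Of 29 other cytokines and chemokines that NF-kB can induce, 17 were tested and 0 called. Their medians were -0.13 and 0.04 in siPTBP1 replicates 1 and 2 and 0.06 in siDNMT3B-L. At 1.5-fold, 3 were higher and 4 lower in siPTBP1 replicate 1 (4.52% and 7.36% of all genes). The counts were 2 higher and 2 lower in replicate 2 (4.08% and 8.19%), and 1 higher and 3 lower in siDNMT3B-L (4.6% and 7.3%). IL11, another cytokine of the gp130 family, was at 105.5 and 61.0 CPM in siPTBP1, 50.4 CPM in siDNMT3B-L and 30.8 CPM in control. Like LIF, its control library was the lowest of the 4. CLCF1, a further ligand that signals through gp130, was at 35.7 and 31.8 CPM in siPTBP1, 15.4 CPM in siDNMT3B-L and 23.1 CPM in control, and IL32 was at 51.1 and 52.1 CPM in siPTBP1, 72.2 CPM in siDNMT3B-L and 78.2 CPM in control. CCL5, a T cell chemokine, was at 8.55 and 22.1 CPM in siPTBP1, 6.40 CPM in siDNMT3B-L and 21.3 CPM in control. CCL2, a monocyte chemokine, was at 11.1 and 13.3 CPM in siPTBP1, 5.51 CPM in siDNMT3B-L and 12.8 CPM in control. TNF, the cytokine that most directly feeds the pathway, was listed only in siDNMT3B-L, at 0.313 CPM.

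Of 33 other NF-kB targets of epithelial cells, 25 were tested and 0 called. At 1.5-fold, 10 genes were higher and 1 lower in siPTBP1 replicate 1 (4.52% and 7.36% of all genes), 2 higher and 5 lower in replicate 2 (4.08% and 8.19%), and 2 higher and 3 lower in siDNMT3B-L (4.6% and 7.3%). The difference between the 2 siPTBP1 libraries was not tested. Of the 5 epithelial markers, 1 was at least 1.5-fold lower in replicate 1 and 4 in replicate 2, with medians of -0.01 and -1.14, and their part in these counts was not tested. The medians were 0.24, -0.14 and -0.01. PLAUR, the urokinase receptor, was at 170.3 and 138 CPM in siPTBP1, 79.9 CPM in siDNMT3B-L and 85.6 CPM in control. IER3, an early-response survival gene, was at 133.5 and 108 CPM in siPTBP1, 109.6 CPM in siDNMT3B-L and 76.0 CPM in control. SAA1, an acute-phase protein, was at 3.28 and 4.01 CPM in siPTBP1, 12.6 CPM in siDNMT3B-L and 7.02 CPM in control, the same order of libraries as CXCL1. CD83 was at 24.2 and 7.25 CPM in siPTBP1, 36.1 CPM in siDNMT3B-L and 15.7 CPM in control, and TNFAIP2 was at 456 and 268 CPM in siPTBP1, 169 CPM in siDNMT3B-L and 297 CPM in control.

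**Figure D5:**
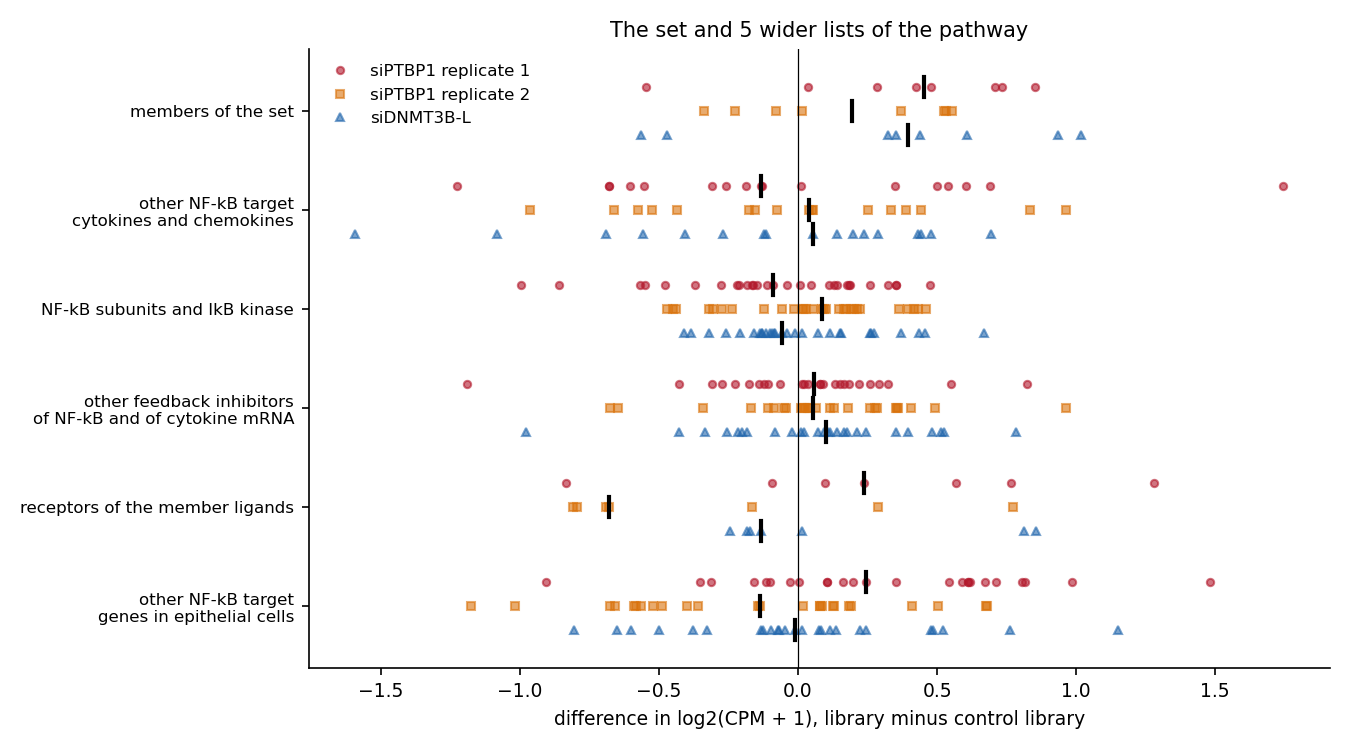
Difference in log2(CPM + 1) from the control library for each tested gene of the member set and of 5 wider lists, in siPTBP1 replicates 1 and 2 and siDNMT3B-L. Points are genes and black bars are medians. The member medians (0.45, 0.19 and 0.39) lie right of 0 in all 3 libraries, and without CXCL3 they are 0.42, 0.014 and 0.35. Those of the other lists lie between -0.68 and 0.24, a range that holds the member median of siPTBP1 replicate 2.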

How the data were processed

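RNA-seq of 4 DU145 libraries was analysed, from 100-base read pairs. Tools in the submitters' notes are HISAT2 2.1.0, HTSeq 0.6.1 and bcl2fastq 2.19.1, and the builds GRCh37 and hg19. The authors deposited CPM values per gene, 1 table per library, listing 21973 to 22069 genes. Of all values, 100% were whole multiples of a common step within 0.001, which gave read pairs (values under 1 read pair were set to 0 for count tools). Genes not listed in all tables were left out of tests. Library totals were 24088975 and 23163964 read pairs for siPTBP1, 22332245 for siDNMT3B-L and 22511596 for control.

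The main test was limma 3.58.1 (R 4.3.3) with trend on log2(CPM + 1) for 14942 genes with at least 1 CPM in at least 1 library, all libraries in 1 fit, with 11.5 prior degrees of freedom. Calls had an adjusted p under 0.05. A lone library was taken to vary like the siPTBP1 libraries. SEs and p-values rest only on the spread between these libraries, pooled over all genes by the trend. That spread may be technical. The test was tried on simulated data first. Ratios of 1 library to another carry exact conditional binomial intervals and levels exact Poisson intervals of 95%, from SciPy 1.17.1, which cover counting error only, since reads are not independent molecules. edgeR 4.0.16 and DESeq2 1.42.0 on recovered reads were alternatives, with other filters, pseudocounts and scalings. Members and lists were chosen with earlier results of these data known. Of each list the text names up to 3 genes with the largest difference of the same sign in both siPTBP1 libraries and up to 2 with the largest in siDNMT3B-L, at a mean of at least 5 CPM, and genes near 0 where a sentence is about them.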

Additional observations from a re-analysis of the deposited data

How the results depend on the processing

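No member passed the adjusted p threshold in any of the 8 alternatives of the fit that tested it. CXCL1, CXCL3 and IL6 were left out of 1 alternative, the filter of an average CPM of at least 5. The 183 member values given by the alternatives kept their direction. Their lowest adjusted p was 0.622 (limma, CXCL1, siPTBP1 against siDNMT3B-L, pseudocount 5), with 3 adjusted p-values not given by DESeq2. The count of all genes called, 1 in siPTBP1 against control, was 0 with no filter on low values, with quantile normalization and in edgeR, and 2 in DESeq2. For siDNMT3B-L against control it was 0, and 1 in DESeq2. For siPTBP1 against siDNMT3B-L it was 1, but 0 with no filter or quantile normalization and 4 in DESeq2. At 1.5-fold in place of 2-fold, the genes past the fold size numbered 1774 in siPTBP1 replicate 1, 1833 in replicate 2, 1778 in siDNMT3B-L and 2555 between the siPTBP1 libraries, with 3, 0, 3 and 1 members among them. At 2-fold on plain CPM ratios, an alternative chosen after seeing the data, they numbered 876, 931 and 868 against control, with 1, 0 and 2 members. Without siPTBP1 replicate 1 or 2, with no test possible since no residual degree of freedom is left, the difference from control ranged from -0.23 to 0.48 for CXCL2 and from -0.080 to 0.29 for NFKBIA, and that of CXCL2 from siDNMT3B-L from -0.66 to 0.041. The cause was not tested. No paired analysis was possible because no label pairs the libraries. CXCL1, CXCL3 and IL6, at 20 to 110 read pairs per library, are limited by depth.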
